A study of Danio rerio with 6 samples.

Results

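The transcripts described here are 9 glial and myelin genes of the zebrafish larva, s100b, gfap, slc1a2b, mbpb, plp1a, plp1b, mpz, olig2 and sox10, among 14791 gene symbols measured. They were taken by symbol from a list of 10, of which mbpa was not analysed here. The genes were selected on earlier results of the same pools, in which s100b was among the smallest p-values between PCB-11 and DMSO and a glial gene list was among the sets with small adjusted p. The difference between PCB-11 and DMSO pools is therefore given for these 9 genes as a description, without a test. RNA came from pools of 18 to 20 whole animals of the strain AB, which had been dechorionated at 24 h post fertilization (hpf) and kept until 96 hpf in glass vials of 5. In 3 pools the animals had been exposed to 4500 µg/L of PCB-11 (3,3'-dichlorobiphenyl, a lightly chlorinated polychlorinated biphenyl) in DMSO, and in 3 pools to DMSO, the vehicle, which both groups received at 0.05% v/v. The labels do not say whether the pools came from separate clutches, so SDs and p-values hold for these pools alone and may partly be technical. Values for single pools are given in the order of replicates 1, 2 and 3.

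Glia are the non-neuronal cells of nervous tissue. Oligodendrocytes in the brain and spinal cord, and Schwann cells along peripheral nerves, wrap axons in myelin, a stack of membrane held compact by a few abundant proteins. Astrocytes and, in fish, radial glia clear glutamate from synapses and carry intermediate filaments of glial fibrillary acidic protein; in the retina Müller glia do the same. In zebrafish the first myelin sheaths form shortly before the stage sampled here.

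Each pool held between 15705712 and 20479751 counts assigned to genes. Levels are library-scaled counts (CPM) after TMM scaling, a correction for differences in library composition. Log2 fold changes (PCB-11 over DMSO) come from edgeR's quasi-likelihood fit over the 12960 genes that passed the filter on low counts. All 9 genes passed that filter. The standard error (SE) of a log2 fold change is its size divided by the square root of the F statistic of that fit. Levels are not compared between genes, since counts grow with transcript length and no lengths were used. The first principal component (43.9% of the variance) set PCB-11 replicate 2 apart, at 36.9, while the remaining 5 pools scored -16.4 to 9.31. That pool also had the fewest counts in genes (15705712) and the largest share of counts outside genes, 39.1%, against 31.4% to 35.0% in the others, and the part of this in the values that turn on it was not tested. RNA integrity numbers were given as 6.9 to 9.2 over all pools, without a value for each pool. In whole animals, fewer cells of a type and less RNA per cell cannot be told apart.

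Levels of s100b and gfap were higher in all 3 PCB-11 pools than in any DMSO pool, and slc1a2b did not separate the groups. The gene s100b encodes a small calcium-binding protein that is abundant in glia. In these whole animals s100b was not traced to astrocytes, radial glia or any other cell type. Its level was 28.1, 35.9 and 30.1 CPM in the PCB-11 pools, against 12.6, 16.3 and 17.0 CPM in the DMSO pools. The lowest PCB-11 pool lay well above the highest DMSO pool, and the groups did not overlap. The means were 31.4 ± 4.04 CPM in PCB-11 and 15.3 ± 2.37 CPM in DMSO (SD, n = 3 pools each). The log2 fold change was 1.03 ± 0.15 (SE), or 2.04-fold. Of the 12960 tested genes, 34 had a higher log2 fold change. Since s100b was selected on this contrast, nothing is read from that rank.

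The gene gfap encodes the intermediate filament protein of astrocytes and radial glia. Its level was 400.4, 423.3 and 401.3 CPM in the PCB-11 pools, against 329.1, 317.6 and 307.6 CPM in the DMSO pools. All PCB-11 pools were again above all DMSO pools, with a narrow spread on both sides. The means were 408.3 ± 13.0 CPM in PCB-11 and 318.1 ± 10.8 CPM in DMSO, a log2 fold change of 0.36 ± 0.10, or 1.28-fold.

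The gene slc1a2b encodes a glutamate transporter of the EAAT2 type, which in mammals is the main astrocytic one. Its level was 1219, 1418 and 1059 CPM in the PCB-11 pools, against 1200, 1189 and 1071 CPM in the DMSO pools. The groups overlapped, and the PCB-11 pools held both the highest and the lowest value. The log2 fold change was 0.10 ± 0.14 with all pools and -0.018 without PCB-11 replicate 2.

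**Figure D1:**
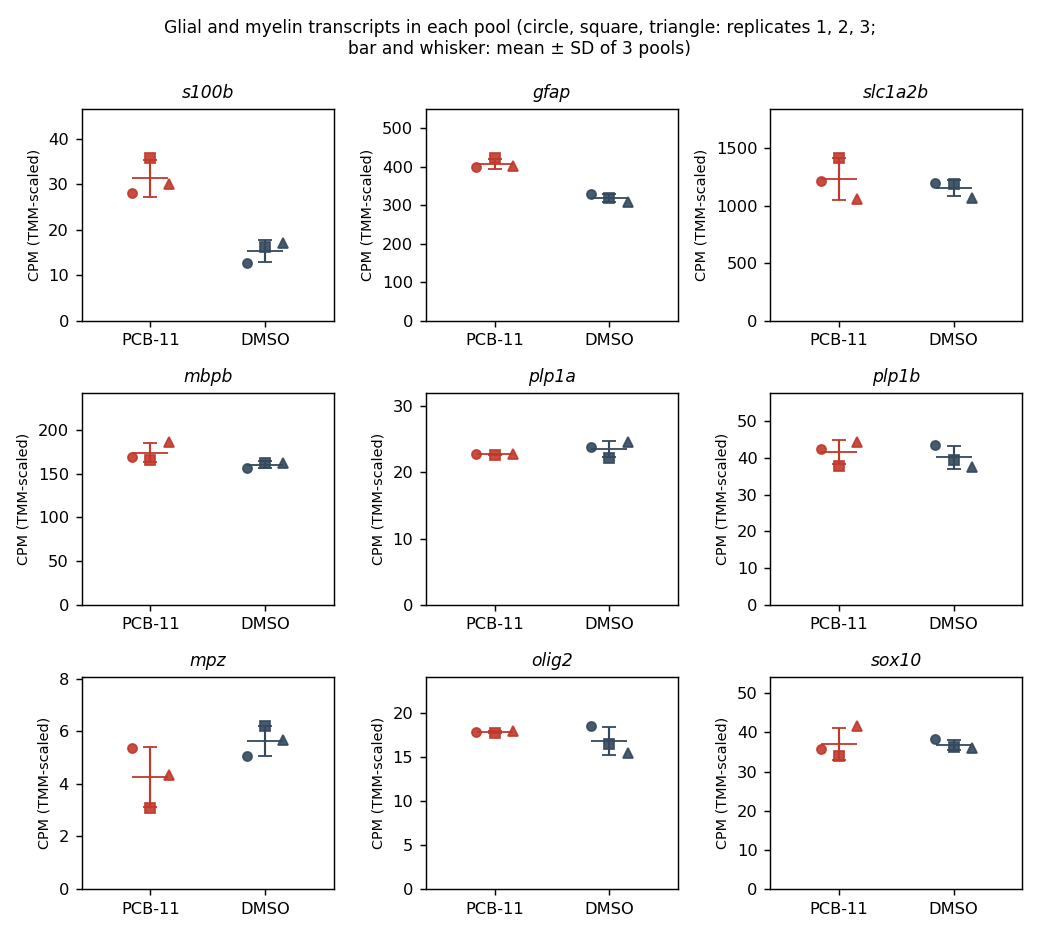
Level of each of the 9 transcripts in CPM (vertical axis, from 0) in the 3 PCB-11 pools and the 3 DMSO pools, with circle, square and triangle for replicates 1, 2 and 3 and mean ± SD of 3 pools. The PCB-11 pools lie above the DMSO pools for s100b (28.1 to 35.9 against 12.6 to 17.0 CPM), gfap (400.4 to 423.3 against 307.6 to 329.1 CPM) and, by a small margin, mbpb.

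Of the myelin protein genes, mbpb lay slightly higher in the PCB-11 pools, plp1a and plp1b overlapped closely between the groups, and mpz overlapped with its lowest values in PCB-11. Myelin basic protein, encoded by mbpb, holds the inner faces of the myelin membrane together. The mbpb level was 169.0, 165.9 and 186.4 CPM in the PCB-11 pools, against 156.2, 162.4 and 162.5 CPM in the DMSO pools. The groups did not overlap, but the lowest PCB-11 pool was close to the highest DMSO pool, and the log2 fold change was 0.12 ± 0.10 with all pools and 0.06 without PCB-11 replicate 3.

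The genes plp1a and plp1b encode proteolipid proteins, the membrane-spanning proteins of myelin of the central nervous system in mammals. The plp1a level was 22.8, 22.6 and 22.8 CPM in the PCB-11 pools, against 23.8, 22.2 and 24.6 CPM in the DMSO pools. The plp1b level was 42.6, 37.9 and 44.4 CPM in the PCB-11 pools, against 43.6, 39.4 and 37.5 CPM in the DMSO pools. Both genes overlapped between the groups, with log2 fold changes of -0.05 ± 0.10 for plp1a and 0.05 ± 0.10 for plp1b. The ratio of plp1a to plp1b counts was 0.548 ± 0.043 in PCB-11 and 0.589 ± 0.059 in DMSO, a difference smaller than the SD of either group.

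The gene mpz encodes myelin protein zero, the adhesion protein that compacts peripheral myelin in mammals and is also made by oligodendrocytes in fish. Its level was 5.37, 3.07 and 4.32 CPM in the PCB-11 pools, against 5.04, 6.2 and 5.66 CPM in the DMSO pools. The groups overlapped through PCB-11 replicate 1, and PCB-11 replicate 2 was the lowest pool. This was also the least counted of the 9 genes, with 50 to 119 counts per pool, so that counting error alone came to 14.1% in the lowest pool. The log2 fold change was -0.40 ± 0.21 with all pools, -0.22 without PCB-11 replicate 2 and -0.60 without PCB-11 replicate 1.

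The lineage factor genes olig2 and sox10 did not separate the groups. The protein Olig2 specifies oligodendrocyte precursors and motor neurons, and Sox10 drives oligodendrocyte and Schwann cell differentiation and is also required in other neural crest derivatives such as pigment cells. The olig2 level was 17.9, 17.8 and 18.0 CPM in the PCB-11 pools, against 18.6, 16.5 and 15.5 CPM in the DMSO pools. The sox10 level was 35.7, 33.9 and 41.7 CPM in the PCB-11 pools, against 38.4, 36.2 and 36.0 CPM in the DMSO pools. The 3 DMSO pools lay on both sides of the PCB-11 pools for olig2 and inside their range for sox10. The log2 fold changes were 0.08 ± 0.11 for olig2 and 0.01 ± 0.11 for sox10.

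Over the 9 genes, 7 log2 fold changes were above 0 and 2 below, beside 50.2% above and 49.8% below among all tested genes. The side of sox10 changed with the scaling, to -0.027 when the pools were set equal in a list of neuron genes. The median was 0.08, beside 0.001 over all tested genes. In 3 of the 9, s100b, gfap and mbpb, the groups did not overlap, beside 19.4% of all tested genes with no overlap in either direction. Since the contrast was in view when the genes were listed, nothing is read from these shares.

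The 9 genes also differed in how far pools of the same group lay apart. The SD of log2 CPM within groups was 0.05 for gfap and for plp1a, 0.07 for mbpb, 0.09 for olig2, 0.12 for plp1b and for sox10, and 0.16 for slc1a2b, all below the median of 0.17 over all tested genes. It was 0.21 for s100b and 0.30 for mpz. Of all tested genes, 1.98% had a smaller spread than gfap, 62.2% a smaller spread than s100b and 81.8% a smaller spread than mpz. In DMSO pools the coefficient of variation of s100b was 15.5%, with replicate 1 the lowest, and that of gfap 3.38%.

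**Figure D2:**
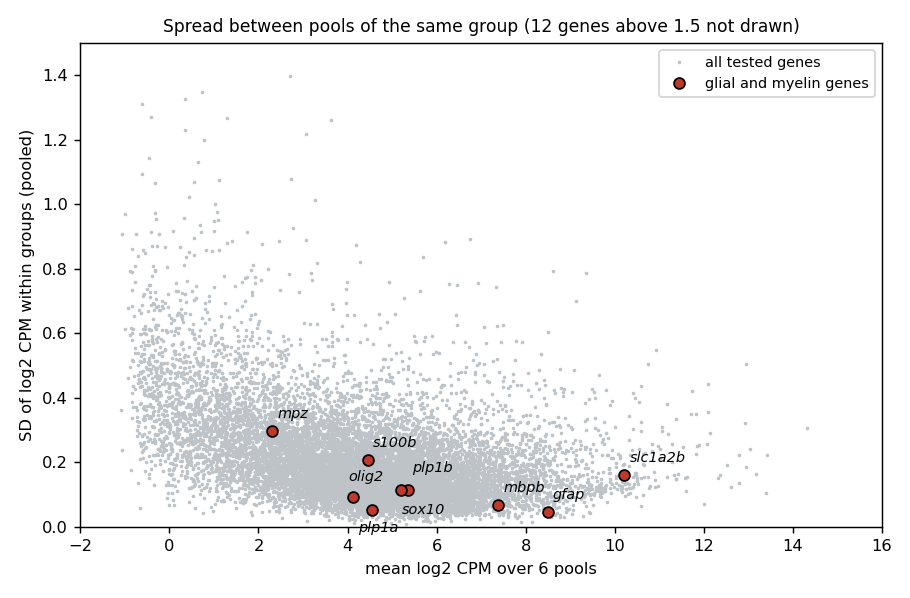
Spread between pools of the same group, as the SD of log2 CPM (vertical axis), against mean log2 CPM over 6 pools (horizontal axis), 1 point per tested gene, with the 9 glial and myelin genes in red. The spread of gfap (0.05) lies near the lower edge of the cloud, and mpz, the least abundant in counts, has the widest spread of the 9 (0.30).

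Profiles over the 6 pools were compared by the root mean square difference of log2 CPM after each gene's own mean had been subtracted, so that 0 means an identical profile. The myelin and lineage genes other than mpz lay 0.064 to 0.116 from each other, with 0.064 between plp1b and sox10, 0.067 between plp1b and olig2, 0.083 between mbpb and sox10 and 0.108 between mbpb and plp1a. The gene mpz stood apart from them, at 0.315 from plp1a, 0.323 from sox10, 0.329 from plp1b, 0.355 from mbpb and 0.372 from olig2. It had only 50 to 119 counts per pool and lay lowest in PCB-11 replicate 2. The part of counting error and of that pool in its distances was not tested. The nearest of the 9 to s100b was gfap, at 0.381, and the farthest was mpz, at 0.806. All these distances include the difference between PCB-11 and DMSO, on which the genes were selected, so nothing is read from their order. Among 11883 other genes with a mean log2 CPM of 1 or more, the 5 nearest to s100b were oaz2b (0.164), phkg1a (0.165), zgc:112163 (0.171), si:dkey-57a22.15 (0.188) and si:dkey-222p3.1 (0.189). The gene oaz2b encodes an antizyme of ornithine decarboxylase and phkg1a a catalytic subunit of phosphorylase kinase. The level of oaz2b was 25.6, 33.8 and 29.5 CPM in the PCB-11 pools, against 16.1, 18.2 and 17.2 CPM in the DMSO pools. As for s100b, PCB-11 replicate 2 was the highest pool and DMSO replicate 1 the lowest, a likeness built in by the choice of nearest profiles.

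Markers of other cell types varied between the pools, beside which the glial values were set. The neuron list had 28 of 29 matched genes tested, with gap43 listed at 0 in every pool. Its summed level was 6301 to 9580 CPM in PCB-11 and 6489 to 6959 CPM in DMSO, and its median log2 deviation from the DMSO average was 0.17, 0.485 and -0.17 in the PCB-11 pools, against 0.05, 0.01 and -0.04 in the DMSO pools. PCB-11 replicate 2, highest in the neuron list, was also the highest pool for s100b, gfap and slc1a2b but the lowest for mpz and sox10. PCB-11 replicate 3, lowest in the list, was the lowest pool for slc1a2b but the highest for mbpb, plp1b and sox10. Expressed against the mean log2 level of the neuron genes in the same pool, s100b was at -2.47, -2.31 and -1.95 in the PCB-11 pools, against -3.53, -3.14 and -2.91 in the DMSO pools. The groups did not overlap on this scale either, with a difference of 0.95 in log2. Since s100b was selected on this contrast, nothing is read from that separation.

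On the same neuron scale gfap was at 1.36, 1.25 and 1.79 in the PCB-11 pools, against 1.16, 1.13 and 1.25 in the DMSO pools. The values of PCB-11 replicate 2 and DMSO replicate 3 then nearly coincided, at 1.249 and 1.254, so that the groups overlapped. The difference in gfap was 0.28. For slc1a2b and olig2 it was 0.008 each, for mbpb 0.04, for plp1b -0.03, for sox10 -0.08, for plp1a -0.13 and for mpz -0.51.

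The macrophage and microglia list, which includes genes of the brain's resident macrophages, had 18 of 21 matched genes tested. It parted the pools across exposure: its median log2 deviation from the DMSO average was -0.71, -0.97 and 0.55 in the PCB-11 pools, against -0.595, 0.56 and 0.14 in the DMSO pools. Its summed level was 815.3 to 1777 CPM in PCB-11 and 1291 to 1400 CPM in DMSO, and c1qb was listed at 0 in PCB-11 replicate 2. The sum did not show the same parting, with 1291 and 1292 CPM in DMSO replicates 1 and 2. Of these, apoeb alone held 846.8 and 813.1 CPM. Pools low and high in this list are named here by the median. Within the 3 pools low in this list, the log2 difference between PCB-11 replicates 1 and 2 and DMSO replicate 1 was 1.325 for s100b and 0.32 for gfap. Within the 3 pools high in it, the difference between PCB-11 replicate 3 and DMSO replicates 2 and 3 was 0.85 for s100b and 0.36 for gfap. For plp1b, olig2, sox10 and slc1a2b the sign differed between these 2 sets of pools, with log2 differences from -0.142 to 0.208. In each set 1 group is represented by 1 pool, so the differences have no spread there and nothing is read from the signs.

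The pigment and neural crest list, some of whose cells also use Sox10, had 13 of 13 matched genes tested. Its median log2 difference was -0.39, -0.40 and 0.28 in the PCB-11 pools, against -0.56, 0.40 and 0.14 in the DMSO pools. Its summed level was 278.2 to 523.8 CPM in PCB-11 and 297.3 to 542.1 CPM in DMSO. The skeletal muscle list, with 22 of 22 tested, had summed levels of 60760 to 96020 CPM in PCB-11 and 74790 to 81080 CPM in DMSO. The part of these cell types in the glial values was not tested.

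**Figure D3:**
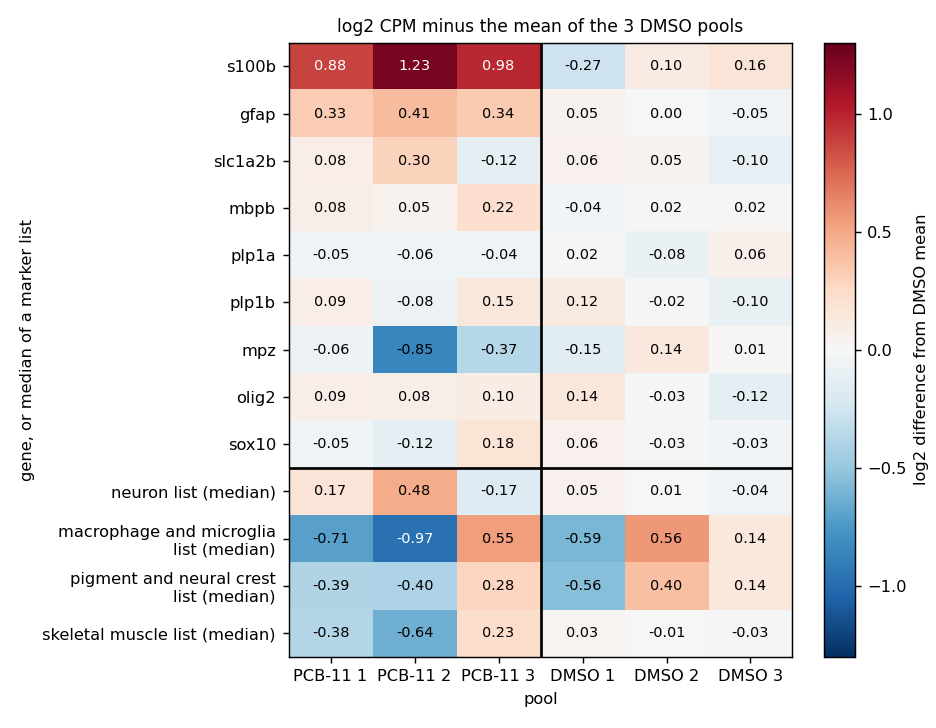
Log2 CPM minus the mean of the 3 DMSO pools, for the 9 transcripts (rows above the line) and the medians of 4 marker lists (rows below it), in each pool (columns, PCB-11 left). The s100b row is high in all 3 PCB-11 pools (0.88, 1.23 and 0.98), and the macrophage and microglia row parts the pools across exposure.

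Of the myelin genes outside the 9, none passed in edgeR's test among the 14 tested of 15 matched, nor in DESeq2 or limma-voom. The background for a call was 0.0463% of all tested genes in edgeR, 0.864% in DESeq2 and 0% in limma-voom. There were 5 log2 fold changes above 0 and 9 below, with a median of -0.14, and 1 gene was lower at an unadjusted p under 0.05, beside 6.04% of all tested genes. That gene was fa2h, whose enzyme hydroxylates the fatty acids of myelin lipids, with 3.25, 2.76 and 2.90 CPM in the PCB-11 pools, against 3.67, 5.83 and 4.59 CPM in the DMSO pools. All PCB-11 pools were below all DMSO pools, with a log2 fold change of -0.66 ± 0.21 and an adjusted p of 0.341 in edgeR.

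The next in p were gpm6bb, of the proteolipid protein family, and gpr126, an adhesion receptor that Schwann cells of zebrafish need to myelinate. The level of gpm6bb was 20.3 ± 3.09 CPM in PCB-11 and 24.7 ± 2.09 CPM in DMSO, and that of gpr126 was 28.5 ± 3.90 CPM in PCB-11 and 33.9 ± 1.36 CPM in DMSO, with adjusted p of 0.441 and 0.444 in edgeR. The log2 fold change of gpr126 was -0.25 with all pools and -0.14 without PCB-11 replicate 2. Among the 14 tested myelin genes outside the 9, the groups did not overlap in 4, beside 19.4% of all tested genes. The 2 lower in PCB-11 were fa2h and gpr126, and the 2 higher were cx47.1 and tspan2a, looked at after their values were seen. The log2 fold change was 0.348 ± 0.175 for cx47.1 and 0.176 ± 0.101 for tspan2a. The claudin gene cldnk, a marker of myelinating glia in zebrafish, and mag, of the axon-facing myelin membrane, were looked at after their values were seen. The level of cldnk was 24.9 ± 2.1 CPM in PCB-11 and 24.7 ± 2.47 CPM in DMSO. For mag it was 24.3, 12.5 and 18.8 CPM in the PCB-11 pools, against 23.8, 25.3 and 19.7 CPM in the DMSO pools. As with mpz, PCB-11 replicate 2 was the lowest pool for mag. The median of the list was -0.38 in that pool, and without it the median log2 fold change over the list was 0.01.

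In the list of oligodendrocyte and Schwann cell lineage genes, 21 of 22 matched genes were tested and none passed in edgeR, DESeq2 or limma-voom. There were 9 log2 fold changes above 0 and 12 below, with a median of -0.08 with all pools and -0.01 without PCB-11 replicate 3. At an unadjusted p under 0.05 there were 3 higher and 1 lower, beside 5.80% higher and 6.04% lower among all tested genes. The groups did not overlap in 5 of the 21, 2 higher and 3 lower in PCB-11, beside 19.4% of all tested genes in either direction. The homeodomain factor genes nkx6.1 and nkx6.2 pattern the ventral neural tube, from which olig2 cells arise. The level of nkx6.1 was 24.7, 30.7 and 21.2 CPM in the PCB-11 pools, against 19.1, 18.8 and 17.3 CPM in the DMSO pools. All PCB-11 pools were above all DMSO pools, with a log2 fold change of 0.48 ± 0.14 and an adjusted p of 0.321 in edgeR. The level of nkx6.2 was 27.3 ± 4.49 CPM in PCB-11 and 21.8 ± 0.97 CPM in DMSO (log2 fold change 0.32 ± 0.13, adjusted p = 0.402 in edgeR), and its log2 fold change was 0.185 without PCB-11 replicate 2. The zinc finger factor gene egr2a had 15 to 21 counts per PCB-11 pool and 23 to 34 per DMSO pool, a log2 fold change of -0.63 ± 0.26 with an adjusted p of 0.407 in edgeR. Its paralogue egr2b, which in mice as Egr2 switches on the Schwann cell myelin program, was named after its values were seen and had a log2 fold change of -0.05 ± 0.13.

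The astrocyte and radial glia list had 25 of 26 matched genes tested, of which 15 had log2 fold changes above 0 and 10 below, with a median of 0.10 with all pools and 0 without PCB-11 replicate 3. None passed in edgeR, DESeq2 or limma-voom with all pools. There were 3 higher and 2 lower at an unadjusted p under 0.05, beside 5.80% higher, 6.04% lower and 11.8% in either direction among all tested genes. Glutamine synthetase, the enzyme with which astrocytes turn glutamate into glutamine, is encoded by glula and glulb. The level of glulb was 503.4, 501.4 and 565.5 CPM in the PCB-11 pools, against 401.4, 432.4 and 437.5 CPM in the DMSO pools. The level of glula was 585.7, 752.1 and 652.4 CPM in the PCB-11 pools, against 529.5, 534.3 and 526.4 CPM in the DMSO pools. For both, all PCB-11 pools were above all DMSO pools, with log2 fold changes of 0.31 ± 0.11 for glulb and 0.32 ± 0.12 for glula and adjusted p of 0.379 and 0.391 in edgeR. Outside the nervous system, glutamine synthetase is also made in other tissues.

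The paralogue of slc1a2b lay on the other side. The level of slc1a2a was 17.8, 18.6 and 15.9 CPM in the PCB-11 pools, against 22.3, 21.8 and 19.2 CPM in the DMSO pools. All PCB-11 pools were below all DMSO pools, with a log2 fold change of -0.28 ± 0.11 and an adjusted p of 0.411 in edgeR. The ratio of slc1a2a to slc1a2b counts was 0.0142 ± 0.0010 in PCB-11 and 0.0183 ± 0.0003 in DMSO. Without PCB-11 replicate 3 edgeR called 1 gene of the list, atp1a2a, which encodes a sodium pump subunit found in astrocytes and muscle of mammals. Its level, looked at after that call, was 154.7, 109.2 and 223.6 CPM in the PCB-11 pools, against 201.9, 219.5 and 236.2 CPM in the DMSO pools, and the pool left out was the highest of its group. In the same setting edgeR called 184 genes in all. Among them were 5 of the skeletal muscle list, acta1a, actn3b, mybpc1, myhz1.1 and myhz2, all lower in PCB-11. Also called was slc7a7 of the macrophage and microglia list, likewise lower in PCB-11. The share of tested genes called in that setting was not computed, so nothing is read from these list counts.

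The S100 family, to which s100b belongs, had 10 of its 11 other matched genes tested, with 6 log2 fold changes above 0 and 4 below, a median of 0.08 and a range of -0.17 to 0.65. The median was -0.01 without PCB-11 replicate 3. None passed in edgeR, DESeq2 or limma-voom, beside 0.0463%, 0.864% and 0% of all tested genes, and 2 were higher at an unadjusted p under 0.05, beside 5.80%. In 3 of the 10 the groups did not overlap, all higher in PCB-11, beside 19.4% of all tested genes in either direction. The level of s100z was 5.63, 6.69 and 5.74 CPM in the PCB-11 pools, against 3.27, 4.06 and 4.13 CPM in the DMSO pools. The groups did not overlap, the log2 fold change was 0.65 ± 0.17, and the adjusted p was 0.308 in edgeR. The level of icn2, an ictacalcin gene, was 175.2 ± 33.8 CPM in PCB-11 and 136.2 ± 6.85 CPM in DMSO (log2 fold change 0.36 ± 0.14, adjusted p = 0.396 in edgeR), with a log2 fold change of 0.21 without PCB-11 replicate 2. The level of s100a10b was 141.3 ± 16.5 CPM in PCB-11 and 120.8 ± 10.5 CPM in DMSO (log2 fold change 0.23 ± 0.12, adjusted p = 0.467 in edgeR), with a log2 fold change of 0.13 without PCB-11 replicate 3.

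**Figure D4:**
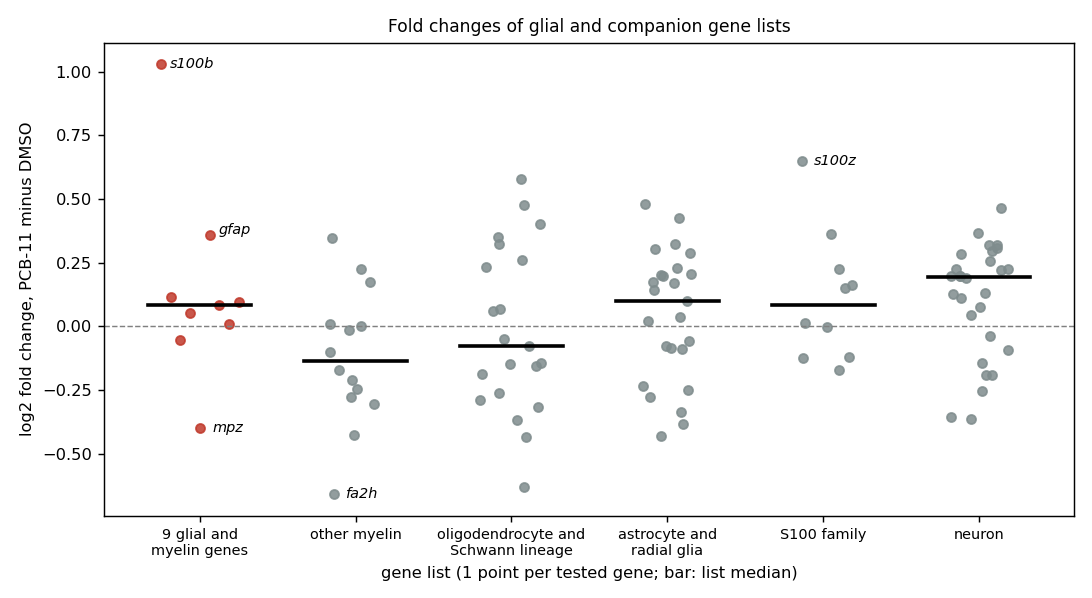
Log2 fold change, PCB-11 minus DMSO (vertical axis), of each tested gene in the 9 glial and myelin genes, the 4 companion lists and the neuron list, with bars at list medians. The point of s100b (1.03), a gene selected on this contrast, lies above every point of the other lists. Medians lie between -0.14 (other myelin) and 0.19 (neuron).

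The log2 fold change of s100b was between 0.91 and 1.11 when any pool was left out, and between 0.95 and 1.09 under the other alternatives of scaling, filter, tool and block. That of gfap was between 0.33 and 0.39 when any pool was left out and between 0.30 and 0.37 otherwise. For mbpb, plp1a, plp1b, mpz and olig2 the sign held under all 17 alternatives, although only mpz of these went past 0.20 in size. The sign did not hold for slc1a2b, under 1 alternative, or for sox10, under 4 alternatives. All alternatives refit the pools on whose contrast the genes were selected, so nothing is read from the width of these ranges.

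**Figure D5:**
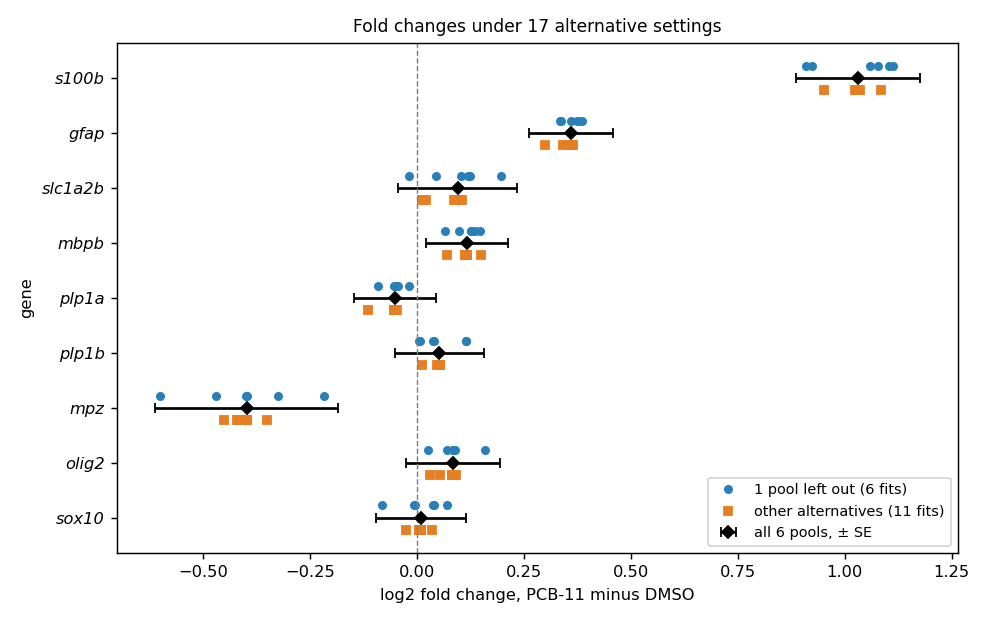
Log2 fold change, PCB-11 minus DMSO (horizontal axis), of each of the 9 transcripts with all 6 pools (diamond ± SE), with 1 pool left out (blue) and under the other alternatives (orange). The values of s100b, a gene selected on this contrast, lie between 0.91 and 1.11, and those of sox10 lie on both sides of 0.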

How the data were processed

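Poly(A) RNA of 6 pools was sequenced from directional libraries as single-end reads, per the labels' protocols. The authors deposited 1 table of raw read counts by gene symbol for each pool. The submitters' processing notes name danRer7 and Cufflinks without a role; the sources used here give no aligner, counter or strand setting, so overlapping genes and near-identical paralogues may exchange reads. Rows for reads outside genes (31.4% to 39.1% of counts) and ambiguous reads (0.379% to 0.429%) were left out. The labels mention no molecular identifiers, so errors from counting may understate the true ones.

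Groups and replicate numbers came from the sample titles. Counts were filtered with edgeR's default rule (1831 genes removed), scaled by TMM over the genes kept and tested with edgeR 4.0.16 in R 4.3.3. The tests were robust quasi-likelihood F tests, two-sided, with group as the only term. Benjamini-Hochberg adjustment was over all 12960 genes, with a threshold of 0.05. Log2 CPM used a prior count of 2. The test was checked on simulated data with the same dispersion for every gene and no outlying pool. The check therefore does not cover the uneven spread of these pools. Alternatives were other scalings and filters, DESeq2 1.42.0, limma-voom (limma 3.58.1), no robust dispersion, 2 blocks and leaving out each pool. Scaling to the neuron list was added after seeing the data. The blocks were the replicate number and a split into pools low and high in macrophage genes, itself taken from these data.

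The 9 genes and all lists were chosen with earlier results of these data known. Of 182 list entries 159 matched, 8 through synonyms in the RefSeq table of GRCz12tu. Named besides the 9 were, per glial list, called genes or else the 3 smallest p, and the 5 profiles nearest to s100b. Other genes were named after their values were seen, and most are marked so. No list was tested as a set. Figures were drawn with matplotlib 3.10.9.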

Additional observations from a re-analysis of the deposited data

How the results depend on the processing

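Over all genes, 6 were called in edgeR with all pools, against 112 in DESeq2, 0 in limma-voom (1540 with an unadjusted p below 0.05), 26 with the replicate block and 0 with scaling to the neuron list (371 at an unadjusted p under 0.05), and 0 to 184 when a pool was left out. Leaving out PCB-11 replicate 3 gave the 184, DMSO replicate 2 gave 1, and PCB-11 replicate 1, DMSO replicate 1 or DMSO replicate 3 gave 0. The median of the astrocyte and radial glia list was 0 to 0.186 when a pool was left out and its calls 0 to 1; the median of the other myelin list was -0.213 to 0.01, that of the lineage list -0.084 to -0.011 and that of the S100 list -0.01 to 0.149. The cause of these differences was not tested. The labels state no shared clutch or day, so the replicate numbers were not taken to pair the pools. The deviations of same-numbered pools correlated across genes with r of 0.256, -0.147 and 0.367, which does not settle whether the pools were paired. PCB-11 replicates 1 and 3 correlated best with the DMSO pool of the same number, and PCB-11 replicate 2 with DMSO replicate 1 (0.23). With 3 pools against 3, the differences of plp1a, plp1b, olig2, sox10 and slc1a2b are smaller than their SE, and 50 to 119 counts limit mpz.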

Other observations

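Other genes of radial and retinal Müller glia stood in the astrocyte and radial glia list and were looked at after their values were seen. The level of rlbp1a, which encodes a retinaldehyde-binding protein of Müller glia and pigment epithelium, was 36.8, 46.9 and 35.2 CPM in the PCB-11 pools, against 33.1, 32.4 and 31.7 CPM in the DMSO pools. The level of the carbonic anhydrase gene cahz, made in Müller glia and in red blood cells, was 91.8, 97.7 and 95.7 CPM in the PCB-11 pools, against 88.4, 80.9 and 83.1 CPM in the DMSO pools. For both, and for the brain fatty acid binding protein gene fabp7b (6.15 ± 1.55 CPM in PCB-11 and 4.56 ± 0.09 CPM in DMSO), all PCB-11 pools were above all DMSO pools, and none passed in edgeR (adjusted p of 0.411, 0.458 and 0.431). Others of the list lay on the other side. The level of slc1a3b, which encodes a glutamate transporter of the EAAT1 type, was 36.6, 28.2 and 25.9 CPM in the PCB-11 pools, against 38.4, 41.5 and 34.5 CPM in the DMSO pools, a log2 fold change of -0.335 with overlapping groups. The log2 fold changes of ndrg2, aldh1l1 and slc1a3a were -0.38, -0.25 and -0.09. With glula and glulb, and slc1a2a on the lower side, the groups did not overlap in 6 of the 25 tested genes of that list, beside 19.4% of all tested genes.

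The macrophage gene mpeg1.1, also made in microglia, was looked at after its values were seen. It had 0.052, 0.37 and 11.9 CPM in the PCB-11 pools, against 0.11, 9.22 and 5.61 CPM in the DMSO pools. Not every gene of its list parted the pools so. The level of grn1 was 23.3, 17.3 and 20.2 CPM in the PCB-11 pools, against 23.4, 18.8 and 16.9 CPM in the DMSO pools. Among the 9 glial and myelin genes, the highest pool stood furthest above the lowest, as a ratio, in s100b, at 35.9 and 12.6 CPM. These were PCB-11 replicate 2 and DMSO replicate 1. The ratio therefore includes the contrast on which s100b was selected, and nothing is read from it.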
